A study of Mus musculus with 4 samples.

Results

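The genes described here are 4 chemokine ligand genes, Ccl3, Ccl4, Ccl5 and Xcl1, and 2 chemokine receptor genes, Ccr1 and Xcr1, matched by symbol, and they are 6 of the 32285 genes counted. They were chosen by name as a ligand and receptor group, with earlier values of these same libraries known, among them the difference between genotypes in CD4 and CD8 T cells. That difference is therefore given as a description, without a test, in those cells and their subsets. The cells came from tumours of MC38, a colorectal cancer line of the mouse, grown under the skin of Trim25 cKO mice and of WT mice injected at the age of 8 weeks. They were sorted for CD45, the common leukocyte surface protein, before droplet-based 3' RNA sequencing. There were 2 cKO libraries and 2 WT libraries. The title of the study places the Trim25 ablation in T cells, but neither the Cre line nor the deleted part of the gene is stated in the sources used here. The labels give the tissue as colon, although the tumours grew under the skin. Whether each library is a mouse of its own is not stated in the labels. The p-values then reflect the spread among 4 libraries, which may be technical, and an exact permutation test of 2 against 2 cannot give a two-sided p below 0.333.

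Chemokines are small secreted proteins that guide leukocytes through G protein-coupled receptors. Ccl3, Ccl4 and Ccl5 encode inflammatory CC chemokines made by activated T cells, NK cells and myeloid cells. The products of Ccl3 and Ccl5 bind the receptor encoded by Ccr1. Xcl1 encodes a chemokine of NK cells and CD8 T cells, and its receptor, encoded by Xcr1, marks type 1 conventional dendritic cells (cDC1), which present antigen to CD8 T cells.

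The members lie in 3 places of the genome, by the mouse build GRCm38 and the GENCODE annotation. On chromosome 11, Ccl5 (minus strand, 83525778 to 83530518), Ccl3 (minus strand, 83647844 to 83649355) and Ccl4 (plus strand, 83662584 to 83664683) are neighbours in a chemokine cluster, with 13228 bases between Ccl3 and Ccl4 and 117325 bases between Ccl5 and Ccl3. On chromosome 9, Xcr1 (minus strand, 123852315 to 123862029) and Ccr1 (minus strand, 123962124 to 123968692) lie 100094 bases apart. Xcl1 is on chromosome 1 (minus strand, 164931644 to 164935527). For 4 of the 6 members the promoter was at hand in the RefSeq-based table of build GRCm38.p6, and the 150 bases before the RefSeq start are shown here because Ccl3 and the 3 other genes differ so widely in the cells that use them. Capitals mark TATAA, the core of a TATA box, read on the gene's strand, and GGAAA on either strand (TTTCC where it lies on the other strand), letters shared by binding sites of the NFAT and ETS families. The windows are chr11:83649379-83649528 for Ccl3, chr1:164935523-164935672 for Xcl1, chr9:123968693-123968842 for Ccr1 and chr9:123862030-123862179 for Xcr1, each printed 5′ to 3′ on the minus strand.
Ccl3: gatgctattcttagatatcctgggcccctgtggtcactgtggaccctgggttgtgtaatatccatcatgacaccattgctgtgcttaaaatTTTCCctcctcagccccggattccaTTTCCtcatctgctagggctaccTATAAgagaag
Xcl1: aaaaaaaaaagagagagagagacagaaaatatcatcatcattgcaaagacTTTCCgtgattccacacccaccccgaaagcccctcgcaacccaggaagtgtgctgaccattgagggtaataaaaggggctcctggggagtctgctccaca
Ccr1: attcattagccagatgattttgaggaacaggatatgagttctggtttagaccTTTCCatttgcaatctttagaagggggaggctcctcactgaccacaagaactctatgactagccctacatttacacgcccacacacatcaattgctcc
Xcr1: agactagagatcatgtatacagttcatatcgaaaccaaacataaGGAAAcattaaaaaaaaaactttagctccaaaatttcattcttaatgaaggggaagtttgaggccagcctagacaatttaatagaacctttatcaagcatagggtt
TATAA was found in the window of Ccl3 alone among these 4, 11 to 7 bases before the RefSeq start and 34 to 30 bases before the GENCODE start, and 9.99% of 32851 mouse promoter windows of the same length held it on the gene's strand. GGAAA occurred at 2 places in the window of Ccl3 and at 1 place in each of the windows of Xcl1, Ccr1 and Xcr1, against 37.6% of all windows with at least 1 match on either strand. The AP-1 motif TGANTCA, searched on both strands, was in none of the 4 windows and in 4.24% of all windows. No match overlapped another, and a match describes letters, not a bound site.

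The libraries held 101176581 and 115111783 UMIs (unique molecular identifiers, each counting 1 captured RNA molecule) for cKO, and 96751399 and 127449324 UMIs for WT. After filtering there were 8205 and 9387 cKO cells and 10222 and 12092 WT cells, and any 2 libraries shared between 39 and 57 cell barcodes. Of the 39906 cells, 29693 fell into 18 classes named by marker genes after clustering without the 6 members. The rest stayed unnamed or were set apart as mixed droplets. CD45 RNA (Ptprc) was lowest in the class named fibroblast or tumour, at 69.6 and 105 CPM in cKO and 117 and 118 CPM in WT (CPM, counts per 1000000 UMIs of the class), so that class went against the sort. Trim25 was not absent from cKO T cells. It stood at 43.0 and 40.1 CPM in cKO against 58.0 and 53.2 CPM in WT in CD8 T cells, which did not overlap, and at 64.5 and 54.6 CPM in cKO against 60.8 and 75.4 CPM in WT in conventional CD4 T cells, which did. Since 3' reads can lie outside a deleted part, this level does not check the genotype labels.

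Ccl3 and Ccl4 were most abundant in the same small class. In cells with mast cell or basophil markers (24 and 35 cKO cells, 30 and 41 WT cells), Ccl3 reached 10797 and 16646 CPM in cKO libraries and 17000.5 and 13188 CPM in WT libraries, with UMIs summed over the cells of the class in each library. Neutrophils came next, with 1798 and 2102 CPM in cKO and 1199 and 1249 CPM in WT. Non-classical monocytes, macrophages, monocytes and CD8 T cells followed between 189 and 652 CPM, and each of these classes overlapped the next in order, whereas mast cells or basophils and neutrophils each stood clear of the class below. Ccl4 was at 7787 and 21132 CPM in cKO and 16559.8 and 15353 CPM in WT in mast cells or basophils. Neutrophils were next for Ccl4 too, at 1585 and 2416 CPM in cKO and 1459 and 1764 CPM in WT. The order then differed from that of Ccl3, because plasmacytoid dendritic cells (pDC) were the third-ranked class for Ccl4 with 1109 and 1932 CPM in cKO and 1109 and 1015 CPM in WT, overlapping neutrophils, while their Ccl3 was between 51.7 and 140 CPM.

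The shares of cells followed the levels. In cells thinned to 2000 UMIs, so that depth was equal, a Ccl3 UMI was found in 90.9% and 96.9% of cKO mast cells or basophils and in 100% and 93.3% of WT ones, and unthinned in 91.7% and 97.1% in cKO and 100% and 92.7% in WT. In B cells, taken as a class with little Ccl3 of its own, the shares were 3.42% and 7.26% in cKO and 5.69% and 6.28% in WT. The thinned share in fibroblast or tumour cells ranged from 2.31% to 7.89% over the 4 libraries, so a share of a few percent was reached in classes that should lack the gene.

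Ccl5 had another order. Migratory dendritic cells, mature cells that carry antigen to lymph nodes, led with 8594 and 7194 CPM in cKO and 6212 and 10732 CPM in WT. Their median depth was 3463 and 7228.5 UMIs in cKO and 9359.5 and 8063.5 UMIs in WT, lowest in the cKO library that held 63 of these cells. T cells marked by Ly6c2 and Ly49 receptor genes followed at 2167 and 2387 CPM in cKO and 2622 and 2656 CPM in WT, which was below every migratory dendritic library. CD8 T cells (1270 to 1854 CPM) and NK cells (974 to 1272 CPM) came next and overlapped each other, and NK cells stood clear of the regulatory T cells (Treg) below them, at 376 to 633 CPM. Of all Ccl5 UMIs, NK cells held 22.0% and 17.6% in cKO and 17.0% and 15.7% in WT, CD8 T cells 10.6% and 11.3% in cKO and 13.7% and 13.8% in WT, and migratory dendritic cells between 7.10% and 16.6% despite their 63 to 156 cells a library. Cells outside the named classes held between 31.0% and 33.6%.

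Xcl1 was an NK cell transcript first of all. It stood at 3543 and 3697 CPM in cKO NK cells and 3301 and 3737 CPM in WT NK cells, clear of the Ly6c2 positive T cells at 1641 and 1278 CPM in cKO and 949 and 1614 CPM in WT. NK cells held 61.7% and 63.4% of all Xcl1 UMIs in cKO and 63.8% and 56.7% in WT. CD8 T cells were the third class and overlapped the Ly6c2 positive T cells, at 873 and 548 CPM in cKO and 620 and 1470 CPM in WT, and their 2 WT libraries lay further apart than the genotypes. After thinning to 2000 UMIs, 75.2% and 77.9% of cKO NK cells and 71.7% and 72.9% of WT NK cells had an Xcl1 UMI, against 7.19% and 6.62% of cKO B cells and 4.63% and 13.4% of WT B cells.

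The receptor genes were highest in other classes than Ccl5 and Xcl1. Ccr1 was highest in neutrophils, at 1088 and 1327 CPM in cKO and 784 and 687 CPM in WT. Monocytes had 566 and 590 CPM in cKO and 528 and 495 CPM in WT, and macrophages 490 and 454 CPM in cKO and 446 and 433 CPM in WT. All 3 of these myeloid classes were clear of the next in order except macrophages, which overlapped type 2 conventional dendritic cells (cDC2) at 230 to 434 CPM. Lymphocyte classes stayed below 60 CPM, with NK cells lowest at 8.93 and 10.3 CPM in cKO and 12.3 and 9.14 CPM in WT. Monocytes held 38.2% and 45.2% of all Ccr1 UMIs in cKO and 53.1% and 43.5% in WT.

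Xcr1 was close to specific for 1 class. In cDC1 it stood at 522 and 365 CPM in cKO and 388 and 547 CPM in WT, while no other class passed 7.87 CPM in any library. The cDC1 class also held Clec9a, a receptor for dead cells that marks the same cell type, at 356 and 397 CPM in cKO and 400 and 357 CPM in WT. Thinned to 2000 UMIs, 39.7% and 30.5% of cKO cDC1 and 25.3% and 39.1% of WT cDC1 had an Xcr1 UMI, against 0 and 1 cKO B cells of 292 and 317, and 0 and 1 WT B cells of 281 and 382. A count of 0 of 292 still allows a share of up to 1.03%, and 0 of 281 up to 1.07%, for counting error only.

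**Figure D1:**
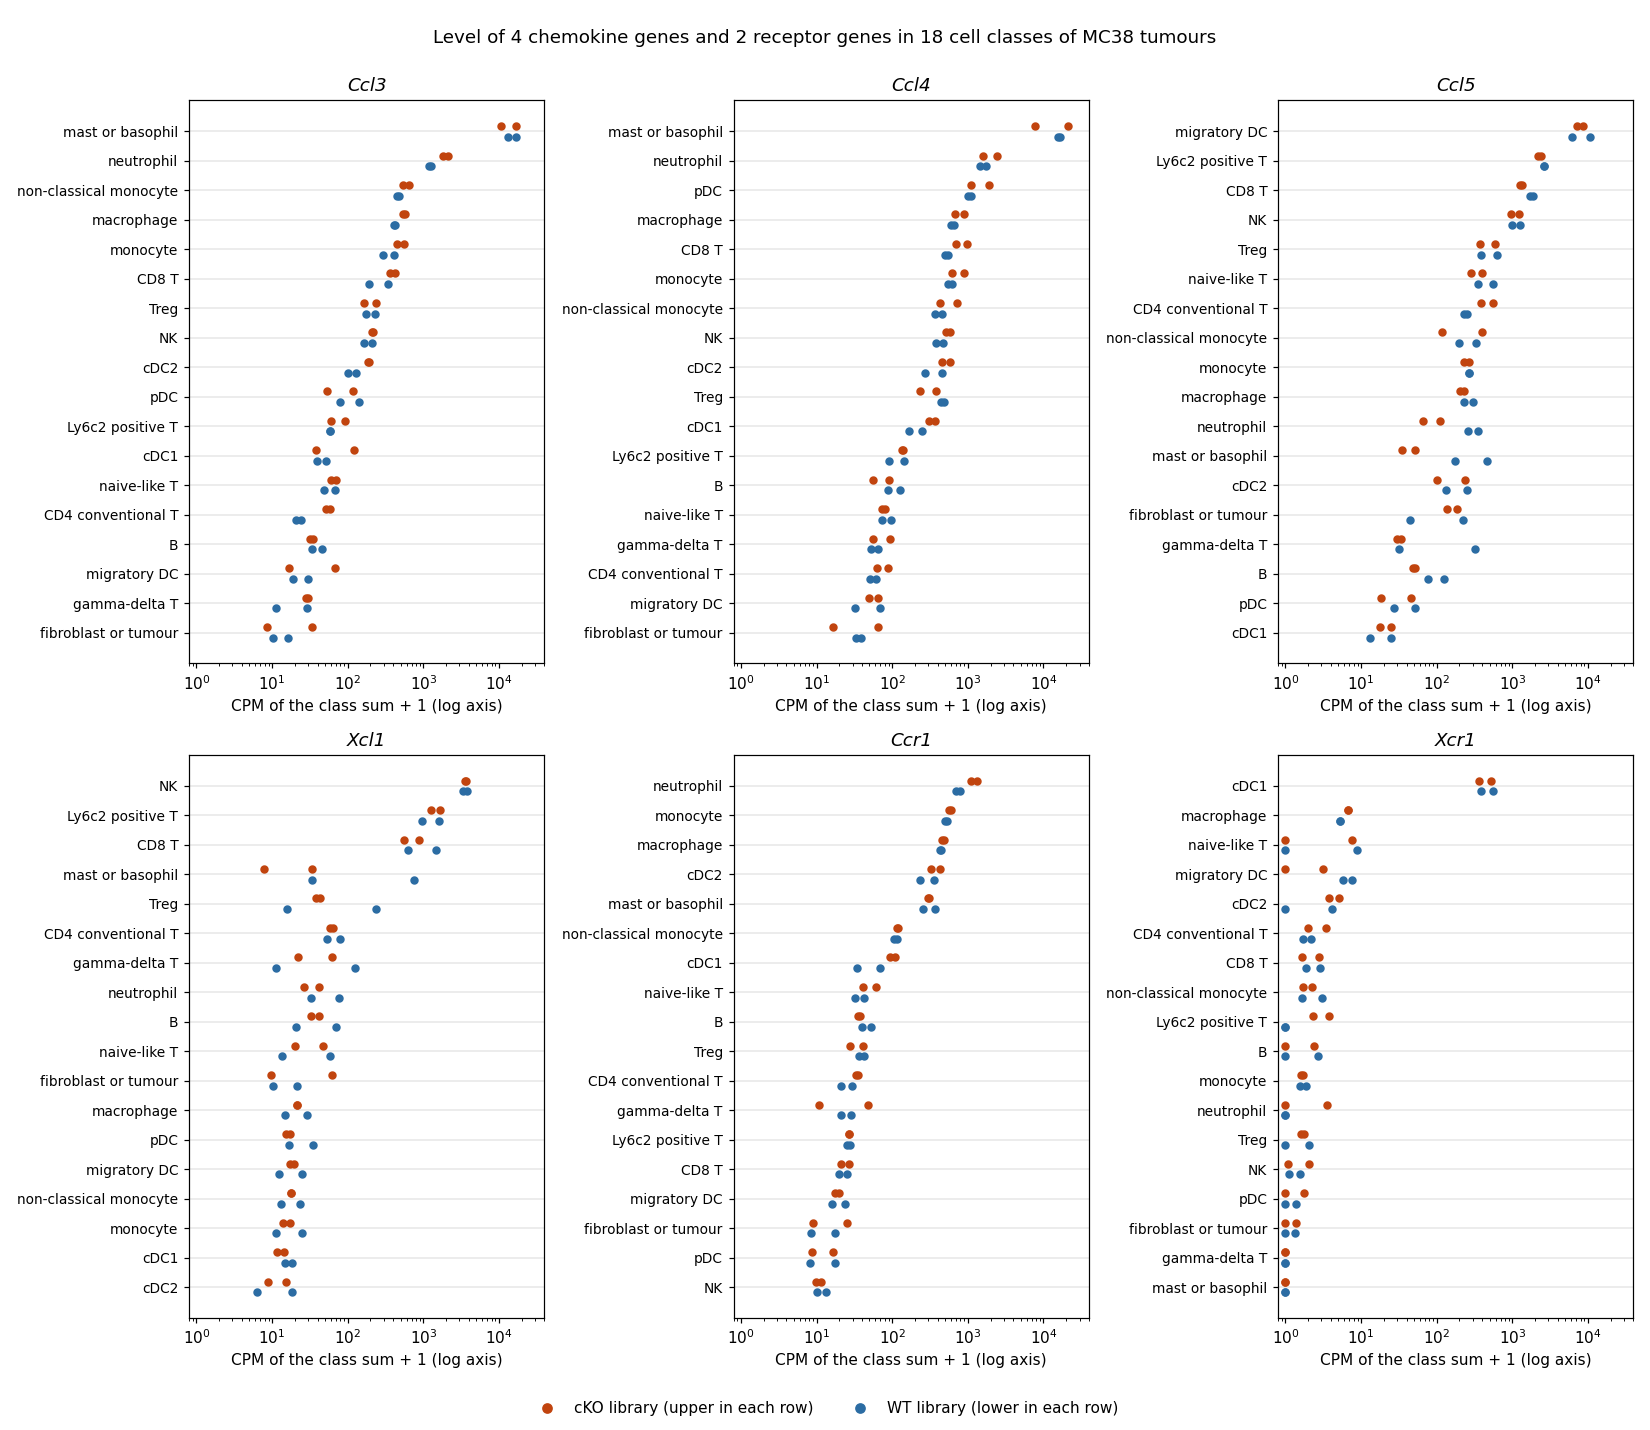
Level of each of the 6 genes in 18 cell classes, as CPM of the class sum plus 1 on a log axis; each point is 1 library, cKO above WT in each row, and classes run from the highest mean at the top. Ccl3 and Ccl4 share mast cells or basophils and neutrophils at the top, Ccl5 is led by migratory dendritic cells, Xcl1 by NK cells, Ccr1 by neutrophils and Xcr1 by cDC1, where it stands between 365 and 547 CPM while every other class is at 7.87 CPM or less.

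Across the 18 classes, Ccl3 and Ccl4 were the most alike of the 6 members, with a Pearson correlation of 0.93 between mean log2(CPM + 1) values. The other pairs that involve Ccl3 reached 0.67 with Ccr1, 0.17 with Xcl1, -0.01 with Ccl5 and -0.17 with Xcr1. These are descriptions over classes that share the same 4 libraries. Among 6769 other genes with at least 50 CPM in some class, those most like Ccl3 were Kcnj2 (0.89), which encodes a potassium channel, and the inhibitory receptor genes Lilr4b (0.86) and Lilrb4a (0.85). For Ccl4 they were Trf (0.87), which encodes transferrin, Abr (0.84) and Plek (0.82), and for Ccl5 they were AW112010 (0.80), Peak1 (0.80) and Dnajc12 (0.78). Xcl1 went with the NK receptor genes Klrc1 (0.96) and Klra5 (0.94) and with Gzma (0.94), the gene of granzyme A. Ccr1 went with Clec4n (0.97), which encodes the fungal sensor dectin-2, Nlrp3 (0.94), an inflammasome gene, and Lpcat2 (0.94), while the genes most like Xcr1 were Gcsam (0.88), Gpr141b (0.83) and Sept3 (0.83).

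Genes found in the same cells were then counted within classes. Among NK cells thinned to 2000 UMIs, Ccl4 was found in 79.8% and 77.0% of Ccl3 positive cKO cells and in 68.2% and 75.2% of Ccl3 positive WT cells. Among Ccl3 negative NK cells the shares with Ccl4 were 17.9% and 23.3% in cKO and 21.6% and 16.9% in WT, so every library of Ccl3 positive cells was above every library of negative ones. Ccl5, which did not go with Ccl4 across classes (-0.20), was in 82.0% and 77.0% of Ccl4 positive cKO NK cells and 75.3% and 74.1% of Ccl4 positive WT NK cells, against 25.5% and 23.4% of Ccl4 negative cKO cells and 29.0% and 19.1% of Ccl4 negative WT cells. Xcl1 did not follow, with 67.7% and 77.0% of Ccl3 positive cKO NK cells and 65.9% and 69.8% of Ccl3 positive WT NK cells, against 77.0% and 78.1% of negative cKO cells and 73.1% and 73.6% of negative WT cells. In CD8 T cells Xcl1 was found in 22.2% and 13.1% of Ccl5 positive cKO cells and in 15.3% and 22.8% of Ccl5 positive WT cells, against 42.6% and 36.0% of Ccl5 negative cKO cells and 46.1% and 61.8% of Ccl5 negative WT cells, so that every library of Ccl5 positive cells was below every library of negative ones.

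In conventional CD4 T cells Ccl5 was higher in both cKO libraries, at 388 and 548 CPM, than in both WT libraries, at 254 and 229 CPM. In CD8 T cells it was lower in both cKO libraries, at 1344 and 1270 CPM, than in both WT libraries, at 1706 and 1854 CPM. The mean was 468 ± 113 CPM in cKO and 241 ± 17.3 CPM in WT CD4 cells, and 1307 ± 52.6 CPM in cKO and 1780 ± 105 CPM in WT CD8 cells (SD, n = 2 each). The fitted log2 difference, cKO over WT, was 0.95 ± 0.17 (SE) in CD4 and -0.43 ± 0.11 in CD8 T cells. These are among the values known when the genes were chosen. For background, 17.7% of the 8598 genes tested in CD4 T cells had both cKO libraries above both WT libraries in CPM, and 19.8% of the 11239 genes tested in CD8 T cells had them below.

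The opposite directions were then followed into subsets. Conventional CD4 T cells held a cluster with Th1 marker genes whose leading genes were Cd40lg, Cd4 and Slamf6, and a cluster positive for Ccr6 or Tmem176a and Tmem176b. In the Th1-like subset Ccl5 was 772 and 839 CPM in cKO and 476 and 529 CPM in WT, which did not overlap (log2 0.67 ± 0.16, SE), as in 17.9% of the genes tested there, of which edgeR called 0.0465%. In the Ccr6 or Tmem176 positive subset it was 28.0 and 168 CPM in cKO and 106 and 83.6 CPM in WT, so the cKO libraries lay on both sides of the WT ones. The Th1-like subset made up 48.8% and 57.9% of the CD4 cells in cKO and 44.5% and 35.6% in WT. With each library given the mean WT makeup of the 2 subsets by UMIs, Ccl5 in CD4 T cells was 298 and 412 CPM in cKO and 240 and 245 CPM in WT, and the log2 ratio of the means was 0.55 in place of 0.96. Of thinned CD4 cells, 17.5% and 34.1% had a Ccl5 UMI in cKO and 17.4% and 16.3% in WT, so the share in 1 cKO library was at the WT level. Unthinned, the shares were 27.4% and 47.6% in cKO and 26.6% and 27.6% in WT. The thinned shares in B cells were 5.14% and 10.1% in cKO and 6.76% and 11.8% in WT, and the median depths before thinning were 5959 and 5477 UMIs in cKO and 5426.5 and 4846 UMIs in WT CD4 cells, and 3644 and 3605 UMIs in cKO and 2926 and 2871 UMIs in WT B cells. At a finer cluster resolution, which gave 1097 CD4 cells of which 851 were among the 892 used here, the log2 difference of Ccl5 was 0.43.

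CD8 T cells fell into a Ly6c2 positive subset led by Gzmk, a granzyme gene, and Ccl5 itself, which took no part in the clustering, a PD-1 positive subset and a cycling subset. Ccl5 was highest in the first of them, at 6193 and 8064 CPM in cKO and 7095 and 8432 CPM in WT, which overlapped. That subset gave 4644 of 6260 and 4087 of 7859 Ccl5 UMIs of the CD8 T cells in cKO, and 7044 of 8967 and 10638 of 12781 in WT. PD-1 positive cells had 540 and 863 CPM in cKO and 556 and 489 CPM in WT, again overlapping, and cycling cells 197 and 165 CPM in cKO against 256 and 211 CPM in WT, which did not, as for 18.8% of the 8891 genes tested there in the same direction. Without cKO replicate 2 the log2 difference in PD-1 positive cells was 0.051, against 0.44 with all libraries. The Ly6c2 positive subset made up 27.8% and 15.9% of the CD8 T cells in cKO and 32.9% and 36.7% in WT. The same marker list also named the separate class of Ly6c2 positive T cells, which is not counted among CD8 T cells. This share and the level at matched makeup thus depend on how clusters were divided between that class and this subset. At the mean WT makeup by UMIs, Ccl5 in CD8 T cells was 1487 and 1991 CPM in cKO and 1682 and 1882 CPM in WT, and the log2 ratio of the means was -0.03 in place of -0.45. At matched makeup the cKO libraries lay on both sides of the WT libraries in CD8 T cells, and above both of them in CD4 T cells. The share of thinned CD8 cells with a Ccl5 UMI ran opposite to the CPM, at 48.6% and 47.1% in cKO and 45.5% and 46.0% in WT. So did the unthinned share, at 68.8% and 69.4% in cKO and 65.8% and 64.0% in WT. How many genes separate by such shares was not counted, and no difference is read from them.

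**Figure D2:**
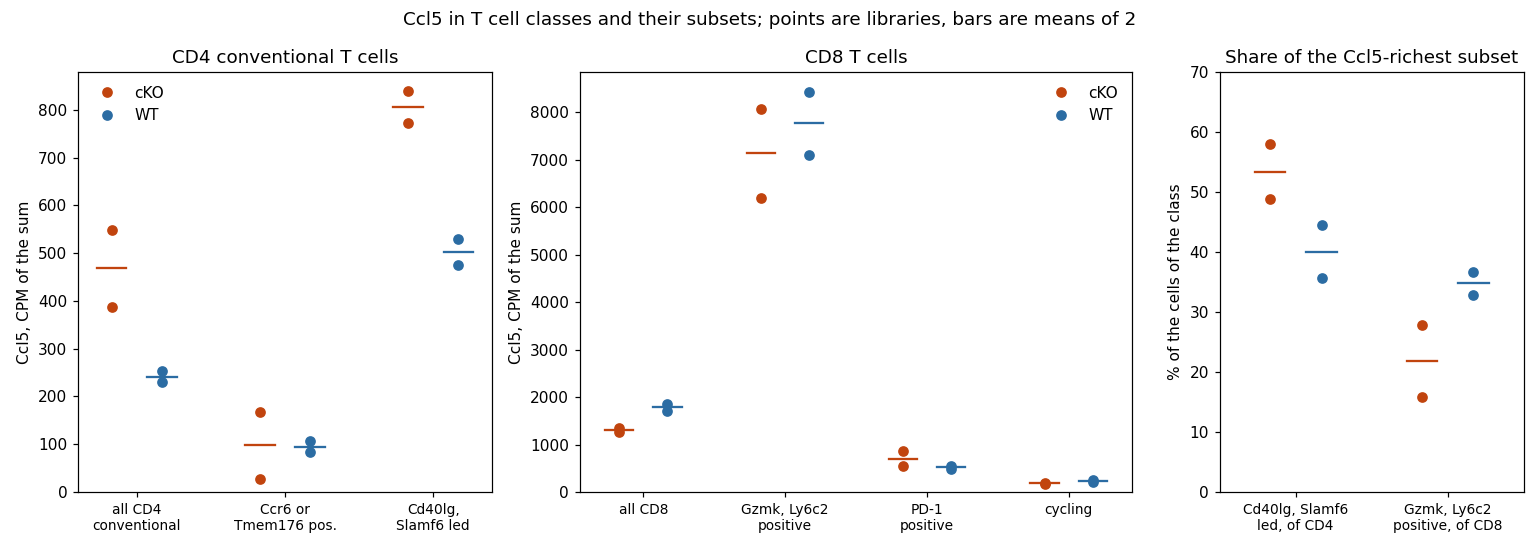
Ccl5 in conventional CD4 T cells (left) and CD8 T cells (middle), for the whole class and its subsets, as CPM of the summed UMIs, and the share of each class in its Ccl5-richest subset (right); points are libraries, bars are means of 2, cKO left of WT. The Th1-like CD4 subset, led by Cd40lg and Slamf6, has 772 and 839 CPM in cKO and 476 and 529 CPM in WT, while the Ly6c2 positive CD8 subset overlaps in level and makes up 27.8% and 15.9% of CD8 T cells in cKO and 32.9% and 36.7% in WT.

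Ccl3 and Ccl4 stood higher in both cKO libraries in CD4 and in CD8 T cells alike, as did 17.7% of all genes tested in CD4 and 15.8% in CD8 T cells. Ccl3 was 51.0 and 57.0 CPM in cKO and 20.04 and 23.2 CPM in WT CD4 T cells (log2 1.31 ± 0.27, SE), and 426 and 366 CPM in cKO and 339 and 189 CPM in WT CD8 T cells (log2 0.60 ± 0.19). The CD8 difference was 0.25 without WT replicate 2 and 1.07 without WT replicate 1. The CD4 values were above in cKO in both subsets, with a log2 difference of 1.31 ± 0.42 in Th1-like and 1.40 ± 0.35 in Ccr6 or Tmem176 positive cells, but they rest on 53 and 47 UMIs in cKO and 29 and 40 UMIs in WT. The thinned share of CD4 cells with a Ccl3 UMI was 7.79% and 8.15% in cKO and 4.24% and 4.65% in WT, close to that in B cells, and B cells had 31.1 and 34.1 CPM in cKO and 45.5 and 32.9 CPM in WT. At the finer resolution the CD4 difference was 0.65. Ccl4 in CD8 T cells was 697 and 960 CPM in cKO and 548 and 500 CPM in WT (log2 0.68 ± 0.14, and 0.42 without cKO replicate 2). It was above in cKO in the PD-1 positive subset, at 811 and 1102 CPM in cKO and 670 and 386 CPM in WT (log2 0.87 ± 0.22, and 0.54 without WT replicate 2), as were 17.3% of the genes there, and overlapped in the Ly6c2 positive and cycling subsets. Ccl4 in CD4 T cells, at 61.6 and 86.1 CPM in cKO and 59.4 and 49.3 CPM in WT, was no higher than the 128 CPM reached in B cells, which spanned 55.6 to 128 CPM over the 4 libraries. Xcl1 in CD8 T cells had a log2 difference of -0.55 ± 0.28, and without the replicate 2 WT library, which alone reached 1470 CPM, it was 0.22.

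In NK cells the CC ligand genes differed far more between subsets than between genotypes. Ccl3, Ccl4 and Ccl5 were concentrated in the Gzma high subset, while Xcl1 was in all 3 subsets. Subset names came from the mean z-score of each marker list over T and NK clusters. The Gzmc high name was clear in a cluster of 194 cells (3.88 for the Gzmc list, 0.43 for the Gzma list). Clusters of 795 and 440 cells took it narrowly, with 0.69 and 0.39 for the Gzmc list against 0.59 and 0.29 for the Gzma list. Ccl5 was 4326 and 3512 CPM in cKO and 4217 and 5022 CPM in WT Gzma high cells, against 53.0 and 90.5 CPM in cKO and 70.1 and 106 CPM in WT cells of the Gzmc high subset. Ccl4 was 1778 and 1961 CPM in cKO and 1353 and 1759 CPM in WT Gzma high cells, and no more than 134 CPM in any library of the other subsets. Ccl3 had 760 and 715 CPM in cKO and 626 and 763 CPM in WT Gzma high cells. Gzmc high cells had 12.1 and 19.6 CPM of Ccl3 in cKO and 38.4 and 33.4 CPM in WT, which did not overlap, as for 20.2% of the genes of that subset in the same direction. This was the member with the smallest p among the NK and Treg subsets, with a log2 difference of -1.15 ± 0.19 (SE), lower in 2 of 2 cKO libraries, and it missed the threshold of 0.05 (edgeR quasi-likelihood test, Benjamini-Hochberg adjusted p = 0.0799 over the 10866 genes of that subset, of which 0% were called). DESeq2, an alternative count model, called it with an adjusted p of 0.0176, and 0.166% of genes with it. Thinned to 2000 UMIs, 2.81% and 4.91% of cKO cells and 6.69% and 6.68% of WT cells of the subset had a Ccl3 UMI, no more than the 7.26% reached in B cells, and the unthinned shares, 17.8% and 21.3% in cKO and 16.2% and 20.1% in WT, overlapped. Xcl1 lay between 2945 and 4548 CPM in every subset and library, and was 4140 and 3933 CPM in cKO and 3014 and 4548 CPM in WT Gzma high cells.

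**Figure D3:**
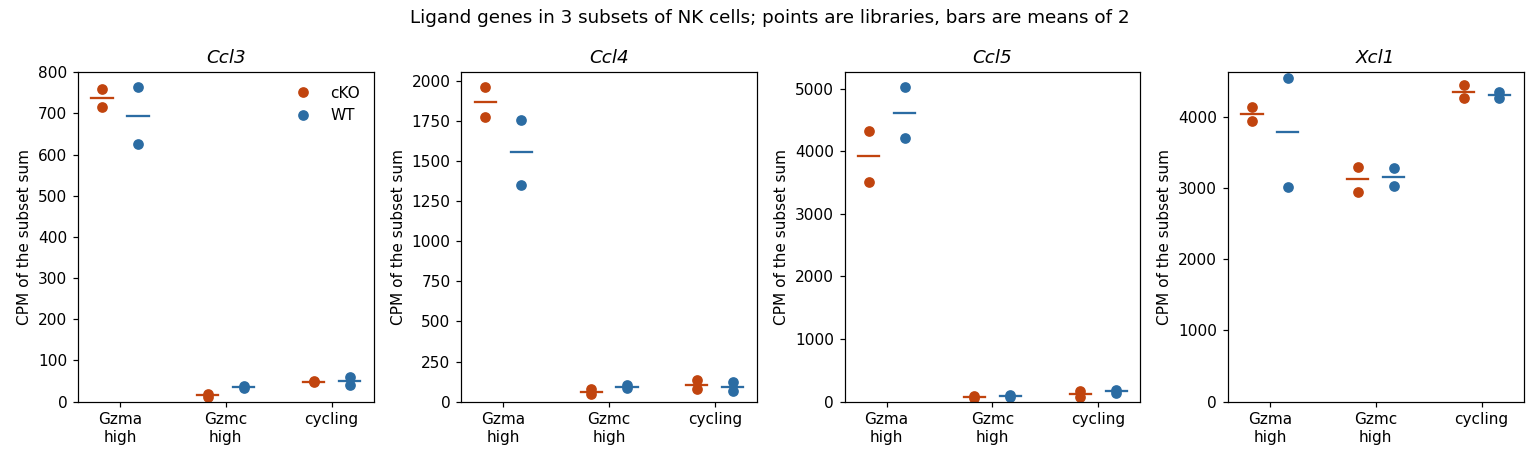
CPM of Ccl3, Ccl4, Ccl5 and Xcl1 in Gzma high, Gzmc high and cycling NK cells; points are libraries, bars are means of 2, cKO left of WT. The 3 CC ligand genes are high in Gzma high cells alone, with Ccl5 at 3512 to 5022 CPM there, and Xcl1 is at 2945 CPM or more in all 3 subsets.

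Outside CD4 and CD8 T cells the difference between genotypes was tested in 16 classes. None of the 83 pairs of a member and a class passed the threshold by edgeR, of which 22 had an unadjusted p under 0.05. Among all genes that unadjusted cutoff was met most often in B cells, by 881 of 8721. It was met least often in migratory dendritic cells, by 304 of 7932. In the same classes between 0% and 0.344% of all genes were called, the most in B cells, with 0.138% in cDC2, 0.108% in Treg, 0.0332% in gamma-delta T cells, 0.0324% in pDC and none in the other 11. DESeq2 called 1 of 79 pairs, Ccl3 in cDC2, in a class where it called 0.355% of genes. Among the NK and Treg subsets edgeR called 0 of 20 pairs, with 5 at an unadjusted p under 0.05, and between 0% and 0.185% of genes. The unadjusted cutoff was met by 669 of 9720 genes in Gzma high NK cells and by 599 of 9743 in cycling NK cells. DESeq2 called 1 of 19 pairs, and up to 0.166% of the genes of a subset. With 1 library left out at a time, edgeR called 9 of the class pairs without cKO replicate 1, 7 without cKO replicate 2, 15 without WT replicate 1 and 4 without WT replicate 2, while up to 5.79% of the genes of a class were called. The counts for the subsets were 4, 4, 5 and 3 in the same order, with up to 2.4% of genes called.

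Ccl3 stood higher in both cKO libraries in neutrophils, macrophages, monocytes, non-classical monocytes and cDC2, without passing the test. Over all 18 classes both cKO libraries were above both WT libraries in 8 classes and below in 0. Outside CD4 and CD8 T cells, whose values were known when the genes were chosen, this was 6 above and 0 below among 16 classes. The class of these 6 that is not named above is not detailed here. In those 16 classes between 12.3% and 19.3% of tested genes were above and between 14.7% and 25.1% below. The fewest were above in non-classical monocytes and the most below in fibroblast or tumour cells, where 13% were above. In neutrophils Ccl3 averaged 1950 ± 215 CPM in cKO and 1224 ± 35.4 CPM in WT (SD, n = 2 each), with a log2 difference of 0.73 ± 0.24 (edgeR adjusted p = 0.438). Macrophages had 534 and 570 CPM in cKO and 413 and 422 CPM in WT (log2 0.41 ± 0.10, edgeR adjusted p = 0.513). Monocytes had 454 and 559 CPM in cKO and 413 and 294 CPM in WT (log2 0.54 ± 0.17, edgeR adjusted p = 0.878), and the difference was 0.31 without WT replicate 2 and 0.34 without cKO replicate 2. The groups were separate in each of these 3 classes, as were those of 16.9% of the genes in neutrophils, 16.4% in macrophages and 14.8% in monocytes in the same direction. In cDC2 Ccl3 was 188 and 187 CPM in cKO and 129 and 101 CPM in WT, with a log2 difference of 0.75 ± 0.14 and an edgeR adjusted p of 0.0962. Of the genes tested in cDC2, 15.5% were separate in this direction. Markers of mast cells or basophils, the class richest in Ccl3, were close to absent from cDC2, with 4 of the 7 at 0 and a sum of no more than 0.524 CPM. The 7 neutrophil marker genes summed to 12.4 and 8.39 CPM in cKO and 8.32 and 10.6 CPM in WT cDC2, the 9 macrophage marker genes to 473 and 379 CPM in cKO and 380 and 361 CPM in WT, and the 6 monocyte marker genes to 3604 and 3972 CPM in cKO and 3876 and 3785 CPM in WT, and the part of such RNA in the Ccl3 difference was not tested. Non-classical monocytes had 540 and 652 CPM in cKO and 481 and 452 CPM in WT. In mast cells or basophils the cKO and WT libraries overlapped. Over all cells of a library Ccl3 was 377 and 448 CPM in cKO and 356 and 277 CPM in WT, in the same order of genotypes. The part of this library-wide level in the class differences was not tested.

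Ccl4 was higher in cKO without overlap in 5 classes and lower in 1, and outside CD4 and CD8 T cells in 3 and 1. In NK cells it was 510 and 580 CPM in cKO and 465 and 379 CPM in WT (log2 0.41 ± 0.12, edgeR adjusted p = 0.615), in cDC1 304 and 365 CPM in cKO and 248 and 166 CPM in WT (log2 0.70 ± 0.21, edgeR adjusted p = 0.838, and 0.43 without WT replicate 2). Of all genes tested, 12.4% in NK cells and 17.8% in cDC1 were separate in this direction. At the mean WT makeup of the 3 NK subsets, the NK levels were 455 and 529 CPM in cKO and 398 and 469 CPM in WT, and overlapped. In pDC it was 1109 and 1932 CPM in cKO and 1109 and 1015 CPM in WT, which overlapped, and the log2 difference of 0.55 ± 0.18 (edgeR adjusted p = 0.595) was 0.072 without cKO replicate 2. In Treg Ccl4 ran the other way, at 382 and 233 CPM in cKO and 439 and 479 CPM in WT (log2 -0.57 ± 0.17, edgeR adjusted p = 0.448), a separation that 18.1% of the genes in Treg had. Non-cycling Treg had 435 and 217 CPM in cKO and 527 and 600 CPM in WT (log2 -0.78 ± 0.20, edgeR adjusted p = 0.244). The size rests on cKO replicate 2, without which the difference was -0.25 in Treg and -0.36 in non-cycling Treg, while without cKO replicate 1 it was -0.97 in Treg and -1.37 in non-cycling Treg. The 9 NK marker genes summed to 77.6 and 108 CPM in cKO Treg and 160 and 158 CPM in WT Treg, in the same direction as Ccl4, and their part in the result was not tested.

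Ccl5 was lower in cKO without overlap in 6 classes and higher in 1, and outside CD4 and CD8 T cells in 5 and 0. The 5 included Ly6c2 positive T cells, the class next after migratory dendritic cells in Ccl5 level, whose values are given above, and macrophages. Of all genes tested, 17.3% in Ly6c2 positive T cells and 17.8% in macrophages were separate in this direction, and edgeR called 0% in either. The others were classes that carried little Ccl5. Neutrophils had 109 and 66.0 CPM in cKO and 260 and 351 CPM in WT, from 43 and 8 UMIs in cKO and 65 and 163 UMIs in WT (log2 -1.66 ± 0.35, edgeR adjusted p = 0.206). Mast cells or basophils had 33.7 and 51.2 CPM in cKO and 463 and 176 CPM in WT, from 5 and 11 UMIs in cKO and 42 and 27 UMIs in WT (log2 -2.74 ± 0.56, edgeR adjusted p = 0.177). B cells had 50.4 and 47.5 CPM in cKO and 76.4 and 124 CPM in WT (log2 -1.06 ± 0.23, edgeR adjusted p = 0.085, and -0.61 without WT replicate 2). Both cKO libraries were below both WT libraries in each of these classes, as for 21.5% of the genes in neutrophils, 20.5% in mast cells or basophils and 20.8% in B cells, and none of the differences passed. Over all cells of a library Ccl5 was 592 and 612 CPM in cKO and 678 and 736 CPM in WT, in the same order of genotypes. The 5 CD8 T cell marker genes summed to 17.8 and 25.5 CPM in cKO B cells and 56.9 and 61.8 CPM in WT B cells. The 9 NK marker genes summed to 101 and 82.4 CPM in cKO neutrophils and 332 and 153 CPM in WT neutrophils, and to 81.0 and 414 CPM in cKO and 881 and 585 CPM in WT mast cells or basophils. The part of such RNA from other cells in these results was not tested. In gamma-delta T cells the log2 difference of -2.66 ± 0.56 (edgeR adjusted p = 0.183) came from 114 UMIs in the replicate 2 WT library, against 15 and 23 UMIs in cKO and 6 UMIs in the other WT library, and without that library it was 0.04.

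Xcl1 in Treg was a similar case. It was 36.9 and 42.7 CPM in cKO and 14.9 and 235 CPM in WT, which overlapped, with a log2 difference of -1.66 ± 0.54 (edgeR adjusted p = 0.58) that became 1.45 without the replicate 2 WT library. Over all cells Xcl1 was 620 and 646 CPM in cKO and 468 and 760 CPM in WT, lowest in the WT library that was lowest in Treg and highest in the WT library that was highest there. The thinned share of Treg with an Xcl1 UMI, 4.35% and 7.02% in cKO and 3.48% and 10.2% in WT, was at or below that of B cells in each library but cKO replicate 2, where B cells had 6.62%. Xcl1 was below WT without overlap in mast cells or basophils and in cDC1, as were 20.5% and 16.1% of the genes tested there. Mast cells or basophils had 6.75 and 32.6 CPM of Xcl1 in cKO and 33.1 and 741 CPM in WT. These came from 114 UMIs in the replicate 2 WT library and 1 to 7 UMIs in each other library. In its main source, NK cells, Xcl1 averaged 3620 ± 109 CPM in cKO and 3519 ± 308 CPM in WT (SD, n = 2 each), a difference smaller than the spread of the WT libraries.

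For the receptors, Ccr1 was higher in cKO without overlap in 5 classes and lower in 1, and outside CD4 and CD8 T cells in 4 and 1. Neutrophils averaged 1208 ± 169 CPM in cKO and 735 ± 68.1 CPM in WT (SD, n = 2 each; log2 0.77 ± 0.25, edgeR adjusted p = 0.428), from 34 to 96 cells a library. In cDC1 Ccr1 was 107 and 91.5 CPM in cKO and 67.5 and 33.8 CPM in WT (log2 1.01 ± 0.30, edgeR adjusted p = 0.838), and the difference was 0.55 without WT replicate 2. That difference was -0.47 where the members took part in the clustering, which kept 253 of the 404 cDC1. Of all genes tested, 16.9% in neutrophils and 17.8% in cDC1 had both cKO libraries above both WT libraries. The share was 16.4% in macrophages and 14.8% in monocytes, and in B cells 20.8% of genes were below. Xcr1 in cDC1 overlapped between the genotypes, with means of 444 ± 111 CPM in cKO and 467 ± 112 CPM in WT, and its log2 difference was -0.09.

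**Figure D4:**
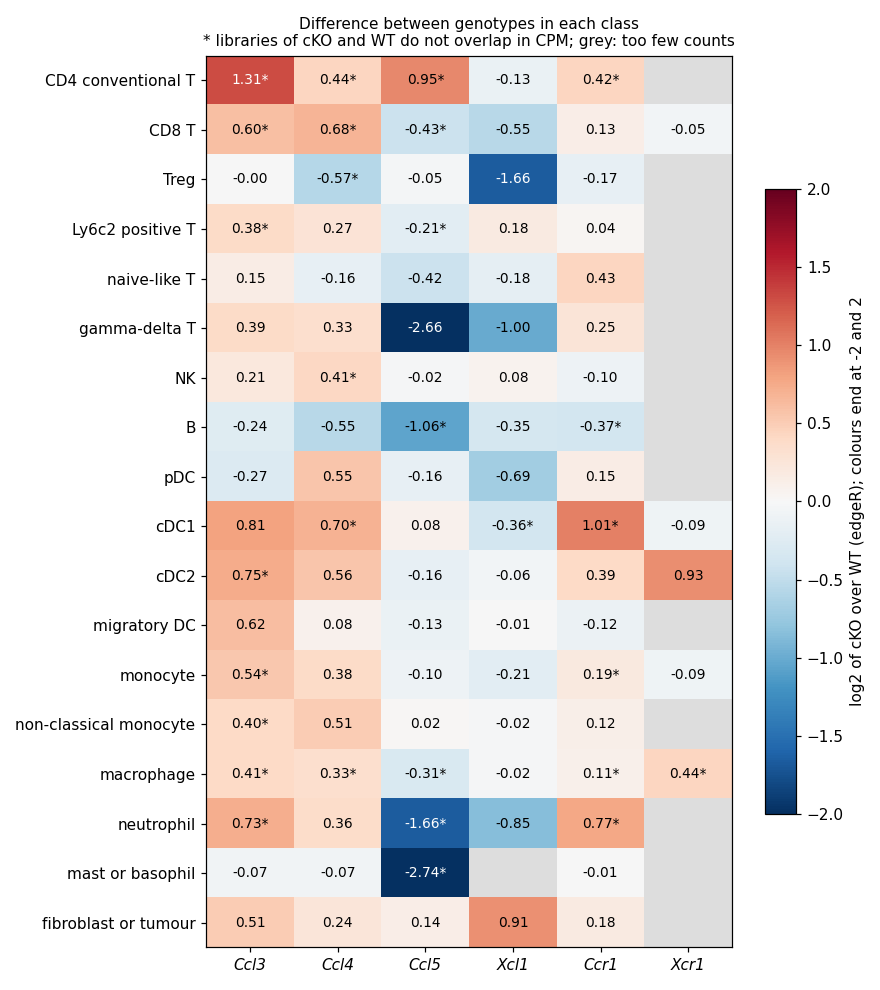
Fitted log2 difference, cKO over WT, of each member in each class (rows); red is higher in cKO, blue is higher in WT, an asterisk marks classes where the libraries of cKO and WT do not overlap in CPM, and grey marks classes with too few counts for the fit. Ccl3 carries asterisks in 8 classes, all of them red, of which 6 lie outside CD4 and CD8 T cells. Ccl5 is red in CD4 T cells (0.95) and blue in CD8 T cells (-0.43), B cells (-1.06), neutrophils (-1.66) and mast cells or basophils (-2.74).

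Monocytes and macrophages had enough cells in every library to compare the genotype difference between them. None of the 6 members differed in that comparison by the edgeR interaction term (0 of 6 with an unadjusted p under 0.05), and 0.0513% of the 13640 genes did. An unadjusted p under 0.05 was reached by 1100 of those genes. For Ccl3 the monocyte difference minus the macrophage difference was 0.13 ± 0.15 (SE, adjusted p = 0.921). The difference of Ccl5 between CD4 and CD8 T cells was not tested, because it had a part in choosing the genes.

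Few other genes of the pathway, in 6 lists chosen with earlier results of these data known, were called. Over the 18 classes, 698 pairs of a listed gene and a class were tested, and edgeR called 1 higher and 1 lower. Few calls do not show that the genes were unchanged. The log2 difference was above 0 in 399 of the 698 pairs, with 89 of 123 in the transcription factor list and 33 of 82 in the XCR1 list. List medians lay, for example, at -1.12 for other CC ligand genes in B cells and -1.33 for effector genes in pDC. For other receptor genes in mast cells or basophils the median was 0.75. Among 15 genes of receptor signalling and desensitisation, edgeR called Rgs2 higher in CD8 T cells, where 0.0445% of the genes tested were called. Because earlier results were known, values of listed genes in CD8 T cells and their subsets are descriptions, given without a p. Rgs2, which encodes a regulator of G protein signalling, was at 797 and 788 CPM in cKO and 506 and 397 CPM in WT (log2 0.83 ± 0.13, higher in 2 of 2 cKO libraries). Among 7 genes of effector molecules, Gzmb, the gene of the cytotoxic protease granzyme B, fell in Treg to 1906 and 2466 CPM in cKO, against 3827 and 3624 CPM in WT (log2 -0.75 ± 0.14, edgeR adjusted p = 0.0194), where 0.108% were called. In Treg it went in the same direction as Ccl4 and as the NK marker genes, which summed to 77.6 and 108 CPM in cKO and 160 and 158 CPM in WT, and their part in it was not tested. Of 9 other CC ligand genes, 5 other receptor genes, 8 transcription factor genes and 7 genes of the XCR1 dendritic cell axis, among them Batf3, Irf8 and Flt3, none was called in any class. In CD8 T cells the receptor signalling list had a median log2 difference of 0.082 over 15 tested genes, against -0.0013 over all 11239 genes. In Treg the effector list had -0.31 over 6 tested genes, against 0.0025 over 9270. In the 9 T and NK subsets 351 pairs were tested, of which 1 was called higher and 2 lower, all of them effector genes. Gzmb fell in non-cycling Treg to 1899 and 2507 CPM in cKO, against 4226 and 3685 CPM in WT (log2 -0.83 ± 0.14, edgeR adjusted p = 0.00881), where 0.104% of genes were called. Gzma, whose gene product is granzyme A, was higher in Ly6c2 positive CD8 T cells (947 and 1028 CPM in cKO, 479 and 485 CPM in WT, log2 1.04 ± 0.14), where 0.013% of genes were called. With the replicate number as a block, edgeR called 0 of the 7681 genes of that subset. Gzma was lower in cycling CD8 T cells (12.6 and 45.1 CPM in cKO, 267 and 72.0 CPM in WT, log2 -2.46 ± 0.47), where 0.135% were called. The WT libraries lay far apart there. Gzma is itself among the NK marker genes, and the part of RNA from NK cells in these differences was not tested.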

How the data were processed

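Droplet-based 3' libraries were prepared from cells sorted for CD45, per the labels' protocols, 2 from cKO and 2 from WT mice, and per the submitters' processing notes Cell Ranger, STAR and the mm10 build were used, with no versions given. The deposited values are UMI counts per gene and cell barcode, made by the authors. Barcodes were dropped where they had under 300 genes, under 500 UMIs or over 15% of UMIs from mitochondrial genes. Doublet scores came from scrublet in scanpy 1.11.5. Its automatic threshold marked no cell, so cells with a score over 0.2 were set apart, between 1.10% and 1.76% a library. Cells were clustered on 2000 variable genes, 30 principal components and 15 neighbours with the Leiden algorithm (resolution 1), leaving out the 6 members, Trim25, Vsir, Cd4 and a further gene that is not reported here, and T, NK and dendritic clusters were clustered again. Clusters were named by marker lists, and names rest on this clustering, not on an annotation by the authors.

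Counts were summed per library and class, for 18 classes with at least 20 cells in every library, and tested with edgeR 4.0.16 (quasi-likelihood, TMM, filterByExpr, R 4.3.3), with Benjamini-Hochberg adjustment over all genes of a class and a threshold of 0.05. Standard errors (SE) are of log2 differences, cKO over WT. Alternatives were DESeq2 1.42.0, no filter, each library left out, the replicate number as a block, and other clusterings. The test recovered 76.5% of simulated 2-fold and 95.9% of 4-fold changes over 11898 genes of simulated NK sums (11.6% of its calls were false), and 20.2% and 73.9% over 4291 genes of neutrophils, a small class. Shares of cells were taken after thinning to 2000 UMIs, which left out 1607 and 1190 cKO cells and 1943 and 2023 WT cells. Limits for a count of 0 use 3 counts and cover counting error only. The named genes are the 6 members, the pathway genes that passed and, per member, the 3 genes of most like pattern. The members and all lists were chosen with earlier results of these data known.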

Additional observations from a re-analysis of the deposited data

Results flagged for a closer look

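For 3 of the members the libraries of cKO and WT separated in opposite directions in different cell classes. Ccl4 was above WT in both cKO libraries in 5 classes (conventional CD4 T cells, CD8 T cells, NK cells, cDC1 and macrophages) and below in 1 (Treg). Ccl5 was above in 1 class, conventional CD4 T cells, and below in 6, which were B cells, CD8 T cells, Ly6c2 positive T cells, macrophages, mast cells or basophils and neutrophils. Ccr1 was above in 5 classes (conventional CD4 T cells, cDC1, macrophages, monocytes and neutrophils) and below in 1, B cells. The differences between these classes were not tested. Values in CD4 and CD8 T cells were among those known when the genes were chosen. Outside CD4 and CD8 T cells Ccl4 was above in 3 classes and below in 1, and Ccr1 above in 4 and below in 1. Ccl5 was above in 0 and below in 5 there, so its opposite directions rest on the CD4 value known beforehand. With 2 libraries a genotype, between 12.3% and 19.3% of tested genes were above and between 14.7% and 25.1% below in a class outside CD4 and CD8 T cells.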

How the results depend on the processing

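For the classes outside CD4 and CD8 T cells, where edgeR called 0 pairs of a member and a class, DESeq2 called 1, no filter on low counts 13, the replicate block 3 and keeping doublets 1, and leaving out 1 library gave between 4 and 15. Leiden resolution 2 and keeping the members among the clustering genes gave 0. Of all genes of a class, up to 1.26% were called with no filter, 1.09% with the replicate block and 0.585% with doublets kept. The highest share was 0.344% in the main fit, 0.378% by DESeq2, 0.19% at Leiden resolution 2 and 0.175% with the members kept. The highest share over classes was thus above that of the main fit with no filter, the block or doublets kept. Single classes went both ways. With doublets kept, the genes called went from 30 to 53 in B cells and from 10 to 5 in Treg. The members called were 13 of 94 pairs with no filter, 3 of 83 with the block and 1 of 83 with doublets kept. Each is a larger share than the highest among all genes in that setting. For the NK and Treg subsets, where edgeR called 0, DESeq2 called 1, no filter 4 and the replicate block 4, and leaving out 1 library gave between 3 and 5. In these subsets up to 0.692% of all genes were called with no filter and 1.3% with the replicate block. The highest share there was 0.185% in the main fit and 0.166% by DESeq2. Replicate numbers did not pair the libraries, since the deviations of same-numbered libraries correlated between -0.0918 and 0.0737 over 18 classes. Among the tested differences named in the text the direction turned in 3: with 1 library left out, Ccl5 in gamma-delta T cells ranged between -3.36 and 0.042 and Xcl1 in Treg between -2.55 and 1.45, both turned without WT replicate 2, and Ccr1 in cDC1 was -0.47 with the members among the clustering genes. Of the differences given as descriptions, 3 turned: Xcl1 in CD8 T cells was 0.22 without WT replicate 2, Ccl5 in Ly6c2 positive CD8 T cells was between -0.34 and 0.074 with 1 library left out, and Ccl5 in Ccr6 or Tmem176 positive CD4 T cells between -1.74 and 0.85, and 0.062 by DESeq2. The cause was not tested beyond the smaller number of libraries or cells. The difference between monocytes and macrophages gave 0 members in each leave-one-out, an alternative chosen after seeing the data. Each member had the same leading class by thinned share. In CD4 T cells Ccl3 rests on 29 to 53 UMIs a library, which limits its precision.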
